A study of Mus musculus with 6 samples.

Results

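The genes described here are 10 antiviral interferon-stimulated genes, Isg15, Usp18, Oasl1, Oasl2, Oas1a, Ifit1, Ifit2, Ifit3, Rtp4 and Rsad2, chosen by name from a table of 18491 genes. All 10 were in the table and all 10 passed the filter on low counts. Isg15 and Ifit3 passed it through the wild-type libraries, as their knockout counts alone would not have passed. RNA was sequenced from mouse bone marrow cells that the labels call haematopoietic stem progenitor cells, sorted by flow cytometry. The sort took place 8 months after injection of poly(I:C), a mimic of viral double-stranded RNA. The 6 libraries comprised 3 of wild type and 3 of Robo1 knockout. The series text describes a Robo1 deletion made with Mx1-cre after 3 doses of poly(I:C), and the protocol gives the injection for every sample. The titles, genotype and treatment fields instead describe the same libraries as a scramble shRNA control and a ROBO1 knockdown, and for replicates 2 and 3 of the latter the treatment field names ROBO2 and ROBO3. Wild type and knockout here follow each sample's description. The labels do not say whether the controls carry Mx1-cre, which surface markers defined the sort, or if each library is a different animal, so every p-value reflects the library-to-library spread alone, which could be technical. Robo1 was not analysed here.

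Interferons are secreted proteins that bind receptors on the cell surface. Through JAK kinases, STAT proteins and Irf9 they switch on genes whose promoters carry an interferon-stimulated response element. The products mark proteins with ISG15, make a second messenger that triggers RNA decay, bind foreign RNA or block viral replication. Poly(I:C) itself induces interferon, and the Mx1 promoter that drives Cre in this model is an interferon-responsive promoter active in many tissues.

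Of the 8 genes with a promoter in the RefSeq table (GRCm38.p6), 5 held the core of that element, searched as GAAA, any 2 bases and GAAA on both strands, within 250 bases before to 50 after the start. Among all 27025 genes with a promoter of the same length, 3.99% held it, and among their 32851 promoters 3.44%. The stretches that hold it, all upstream of the start, are shown because they are a sequence feature that these 5 genes share, with each match in capitals.
Isg15, chr4:156200837-156200916, minus strand: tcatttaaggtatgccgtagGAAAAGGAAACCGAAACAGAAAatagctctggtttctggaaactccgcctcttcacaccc
Oas1a, chr5:120907526-120907605, minus strand: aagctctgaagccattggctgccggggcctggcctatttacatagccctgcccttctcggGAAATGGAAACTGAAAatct
Ifit1, chr19:34640765-34640844, plus strand: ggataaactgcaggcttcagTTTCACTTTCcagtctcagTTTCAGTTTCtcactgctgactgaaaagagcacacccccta
Ifit3, chr19:34583353-34583436, plus strand: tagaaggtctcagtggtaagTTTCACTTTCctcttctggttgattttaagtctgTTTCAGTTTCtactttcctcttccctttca
Rsad2, chr12:26456513-26456592, minus strand: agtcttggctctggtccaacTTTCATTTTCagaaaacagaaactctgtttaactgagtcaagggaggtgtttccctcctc
Isg15 held 3 overlapping matches, Oas1a 2 overlapping ones, Ifit1 and Ifit3 2 separate ones each and Rsad2 1. The letters were not in the windows of Oasl1, Oasl2 and Ifit2, and Usp18 and Rtp4 were not matched. A gamma-activated site, searched as TTCNNNGAA, was in the windows of Oas1a and Ifit2. Of all genes with a promoter 9.55% held it, and of all promoters 8.30%. A match describes the letters only.

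With composition-robust scaling (TMM) 6 of the 10 genes fell in knockout, Usp18, Oasl2, Oas1a, Ifit1, Ifit3 and Rtp4, and 4 did not pass, Isg15, Oasl1, Ifit2 and Rsad2 (edgeR's quasi-likelihood test, Benjamini-Hochberg adjusted p under 0.05 over 15474 genes). Of all genes tested, 14.4% were called lower and 17.2% higher. The median log2 fold change of the 10 genes was -1.61, against -0.09 for all genes tested. In 7 of the 10 genes every knockout library lay below every wild-type library, which held for 24.4% of all genes tested. Ifit3 counts among the 6 and the 7, and Isg15 among the 7, though both passed the low-count filter through wild type. The smallest called change was that of Oas1a.

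The direction was the same with TMM and with total counts, but the size was not. With total counts as the only scaling all 10 genes were called lower at a median of -2.74, and the groups overlapped in none of them. Under that scaling 70.7% of all genes tested were called lower and 4.24% higher, the groups of 76.1% did not overlap in the lower direction, and the median of all genes was -1.22. The shift between the scalings was -1.13. Composition also differed between the groups. The top 100 genes by abundance held 42.3 to 43.3% of counts in wild type and 59.7 to 60.8% in knockout, and mitochondrially encoded genes 2.42 to 3.13% and 4.49 to 4.98%. Totals were 44578916 to 58106099 counts in wild type and 42235077 to 57058267 in knockout. CPM below are counts divided by the TMM-scaled library size and multiplied by 1000000. That size ran from 64035868 to 86624647 in wild type and from 28729580 to 37673364 in knockout, so a given CPM rests on fewer reads in knockout. In bulk RNA, fewer cells of a type and less RNA per cell cannot be told apart.

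**Figure D1:**
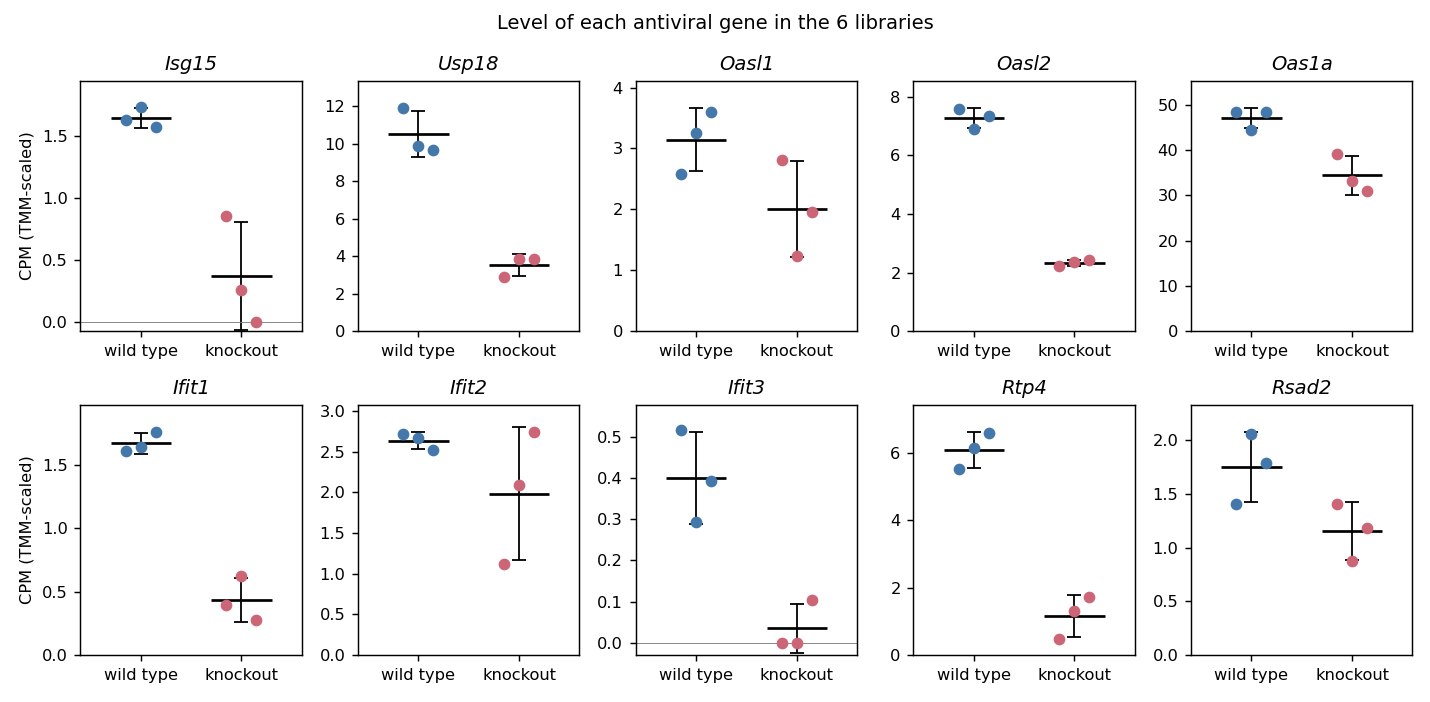
Level of each of the 10 antiviral genes in the 6 libraries, in CPM on the TMM-scaled library size (each panel has its own linear axis). Points are libraries, horizontal lines are group means and bars are 1 SD (n = 3 each); the groups overlap only for Oasl1, Ifit2 and Rsad2.

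Isg15 encodes a ubiquitin-like protein that is attached to other proteins during an antiviral response (chromosome 4, 156199424 to 156200818, minus strand, GRCm38). Wild-type libraries held 104, 142 and 136 counts and knockout libraries 32, 9 and 0, or 1.62, 1.73 and 1.57 CPM against 0.849, 0.254 and 0 CPM. The 0 in knockout replicate 3 allows up to 0.104 CPM (3 counts). The groups did not overlap, and the knockout libraries spread far more than the wild-type ones. The log2 fold change was -2.10 (SE 0.78, edgeR adjusted p = 0.0699), which did not pass. DESeq2 on the same counts gave an adjusted p = 0.0413, and the authors' deposited table gives Isg15 a log2 fold change of -2.13 with an adjusted p = 0.0163. Without knockout replicate 1 the edgeR log2 fold change was -3.57 (adjusted p = 0.0108), and without knockout replicate 3 it was -1.56 (adjusted p = 0.0435).

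Usp18, the protease that removes ISG15 from proteins and dampens signalling at the interferon receptor (chromosome 6, 121245906 to 121270917), fell. It stood at 11.9, 9.90 and 9.69 CPM in wild type, against 2.87, 3.87 and 3.86 CPM in knockout. The knockout libraries lay close together, all below the lowest wild-type library. The log2 fold change was -1.57 (SE 0.17, edgeR adjusted p = 8.41e-05). Its exons share 124 bases with the lincRNA Gm44148 on the other strand, with strand use in counting not given in the sources used here.

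Of the 4 genes for the enzymes that attach ISG15, 3 fell and 1 did not pass. Ube2l6, the ISG15-conjugating enzyme, fell from 77.7 ± 2.41 to 43.7 ± 5.06 CPM (mean ± SD, n = 3 each; log2 fold change -0.83, SE 0.09, edgeR adjusted p = 1.18e-04). Uba7, the activating enzyme, fell (log2 fold change -0.35), as did Herc6, the main mouse ISG15 ligase (-0.81). The calls of Uba7 and Herc6 were lost under 6 and 5 of the 14 alternative settings, among them 5 and 4 of the 6 that leave out a library. For Uba7 these were every library but knockout replicate 1 (adjusted p = 0.0740 to 0.106), and for Herc6 wild type replicates 1 and 3 and knockout replicates 2 and 3 (0.0792 to 0.164). Trim25, another ligase, stood at 7.54 ± 0.116 and 5.84 ± 1.38 CPM.

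The oligoadenylate synthetases sense double-stranded RNA and make a second messenger that triggers RNA decay. Oas1a (chromosome 5, 120896256 to 120907521, minus strand) was the highest of the 10 genes, by CPM and also by FPKM, at 48.3, 44.5 and 48.4 CPM in the wild-type libraries, and at 39.1, 33.1 and 30.9 CPM in the knockout libraries. Its groups did not overlap, but its fall was small beside that of Usp18 or Oasl2, with -0.45 on the log2 scale (SE 0.10, edgeR adjusted p = 0.00757). It made up most of the summed CPM of the 10 genes, which was 82.2 ± 2.68 CPM in the wild-type and 47.4 ± 3.35 CPM in the knockout libraries. Without Oas1a the sums were 35.1 ± 0.453 and 13.0 ± 1.11 CPM (n = 3 each).

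Oasl2 and Oasl1 encode synthetase-like proteins that carry ubiquitin-like domains, and Oasl1 is known to restrain translation of Irf7. The genes are neighbours on chromosome 5, at 114896936 to 114912234 and 114923240 to 114937915, both on the plus strand. Oasl2 stood at 7.59, 6.90 and 7.33 CPM in wild type, against 2.23, 2.34 and 2.44 CPM in knockout. By CPM, and relative to their mean, the knockout values of Oasl2 were the most even of the 10 genes. Its deposited knockout FPKM spread more, at 0.586, 0.417 and 0.475. The fall of Oasl2 was -1.64 on the log2 scale (SE 0.15, edgeR adjusted p = 2.83e-05). Oasl1 stood at 2.58, 3.26 and 3.60 CPM in the wild-type libraries, and at 2.81, 1.24 and 1.95 CPM in the knockout libraries. Knockout replicate 1 lay above the lowest wild-type library, and the difference of -0.65 on the log2 scale (SE 0.30, edgeR adjusted p = 0.139) did not pass, though it did without that library (-0.99, adjusted p = 0.0370). Oasl1 shares 38 exon bases with the antisense gene Gm13822.

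Ratios of counts within a library do not depend on any scaling between libraries, and 4 pairs of the genes were compared in this way, chosen after the values were seen and therefore without a test. There were 2.95, 2.12 and 2.04 Oasl2 counts per Oasl1 count in wild type and 0.792, 1.89 and 1.25 in knockout. Usp18 gave 0.246, 0.222 and 0.200 counts per Oas1a count in wild type and 0.0733, 0.117 and 0.125 in knockout. Neither ratio overlapped between the groups, though the Oasl2 to Oasl1 ratio of knockout replicate 2, from 83 and 44 counts, lay close to the lowest wild-type ratio. Since each pair joins a gene with a larger and one with a smaller fold change, these ratios describe that choice and support nothing further.

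Of the other synthetase genes, described as a family after their values were seen, Oas1g, Oas2, Oas3 and Oas1b fell. Oas1g fell from 16.2 ± 1.81 to 8.21 ± 1.47 CPM and Oas2 from 2.88 ± 0.214 to 0.852 ± 0.387 CPM (n = 3 each; log2 fold changes -0.97 and -1.77, edgeR adjusted p = 9.95e-04 and 0.00337). Oas3 had a log2 fold change of -1.39 (edgeR adjusted p = 0.0455), a call lost under 7 of the 14 alternatives, including every library left out but knockout replicate 3 (adjusted p = 0.0513 to 0.142). Oas1b had 30, 27 and 26 counts in wild type and 0 in each knockout library, at least 12.1-fold lower against a floor of 3 counts over the knockout group. It passed the low-count filter through wild type alone, and its call carries that selection. Oas1c did not pass, with means of 1.90 ± 0.418 CPM in wild type, against 1.13 ± 0.512 CPM in knockout. Reads of the closely similar Oas1 genes may have been split among them, which makes the value of each uncertain.

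The Ifit genes encode RNA-binding proteins with tetratricopeptide repeats, of which Ifit1 binds RNA whose cap lacks the methyl mark of host messengers. Ifit2, Ifit3 and Ifit1 lie in that order on the plus strand of chromosome 19, at 34550694 to 34576419, 34583531 to 34588731 and 34640871 to 34650009. Ifit1 stood at 1.61, 1.65 and 1.77 CPM in wild type, against 0.398, 0.622 and 0.278 CPM in knockout. Every knockout library was far below every wild-type library, at 15, 22 and 8 counts against 103, 135 and 153, and the log2 fold change was -1.93 (SE 0.37, edgeR adjusted p = 0.00363).

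Ifit2 stood at 2.72, 2.67 and 2.53 CPM in the wild-type libraries, and at 1.11, 2.09 and 2.75 CPM in the knockout libraries. The wild-type libraries lay close together, while knockout replicate 3 was the highest of all 6 libraries, and the difference of -0.42 on the log2 scale (SE 0.31, edgeR adjusted p = 0.351) did not pass. Ifit2 has 2 promoters in the RefSeq table, and the deposited FPKM, a value per length, rank its knockout libraries differently, at 0.489, 0.309 and 0.406. There were 0.592, 0.616 and 0.699 Ifit1 counts per Ifit2 count in wild type and 0.357, 0.297 and 0.101 in knockout, which did not overlap.

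Ifit3, whose product binds other Ifit proteins, had 33, 24 and 34 counts in wild type and 0, 0 and 3 in knockout. Per scaled depth, its summed counts were 13.3-fold lower in knockout, with an exact 95% counting interval of 4.40-fold to 65.6-fold. The edgeR adjusted p = 0.0462 was just under the threshold. The call was lost under 7 of the 14 alternatives, including 5 of the 6 that leave out a library. Another was the fit with no filter on low counts (edgeR adjusted p = 0.0796), a filter that Ifit3 passed only through wild type. The adjusted p was 0.148, 0.110 and 0.137 without wild type replicates 1, 2 and 3, and 0.116 and 0.123 without knockout replicates 1 and 2. Its near-copy Ifit3b, which can share reads with it, did not pass the filter, at 14, 9 and 9 counts in wild type and 0, 8 and 0 in knockout. Together both genes had 47, 33 and 43 counts in wild type and 0, 8 and 3 in knockout.

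Rtp4, a receptor transporter protein that escorts membrane receptors to the cell surface, gave the largest fall among the called genes with more than 3 knockout counts (chromosome 16, 23520291 to 23614222, plus strand). It stood at 5.51, 6.14 and 6.60 CPM in wild type, against 0.478, 1.30 and 1.71 CPM in knockout. All knockout libraries lay below all wild-type libraries, with replicate 1 the lowest, and the log2 fold change was -2.41 (SE 0.36, edgeR adjusted p = 7.84e-04). Its annotated exons share 296 bases with the transcript Gm45338 on the same strand.

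Rsad2 encodes viperin, an enzyme that makes a chain-terminating nucleotide (chromosome 12, 26442746 to 26456452, minus strand). It stood at 1.41, 2.06 and 1.79 CPM in the wild-type libraries, and at 1.41, 0.876 and 1.18 CPM in the knockout libraries. Knockout replicate 1 met the lowest wild-type library, and the difference of -0.60 on the log2 scale (SE 0.30, edgeR adjusted p = 0.170) did not pass. Its neighbour Cmpk2, a nucleotide kinase gene induced with Rsad2 by interferon and named here after its value was seen, had means of 5.54 ± 0.966 and 5.78 ± 0.270 CPM (SD, n = 3 each, adjusted p = 0.823 by edgeR). There were 3.92, 2.98 and 3.69 Rtp4 counts per Rsad2 count in wild type and 0.340, 1.48 and 1.44 in knockout, again without overlap.

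**Figure D2:**
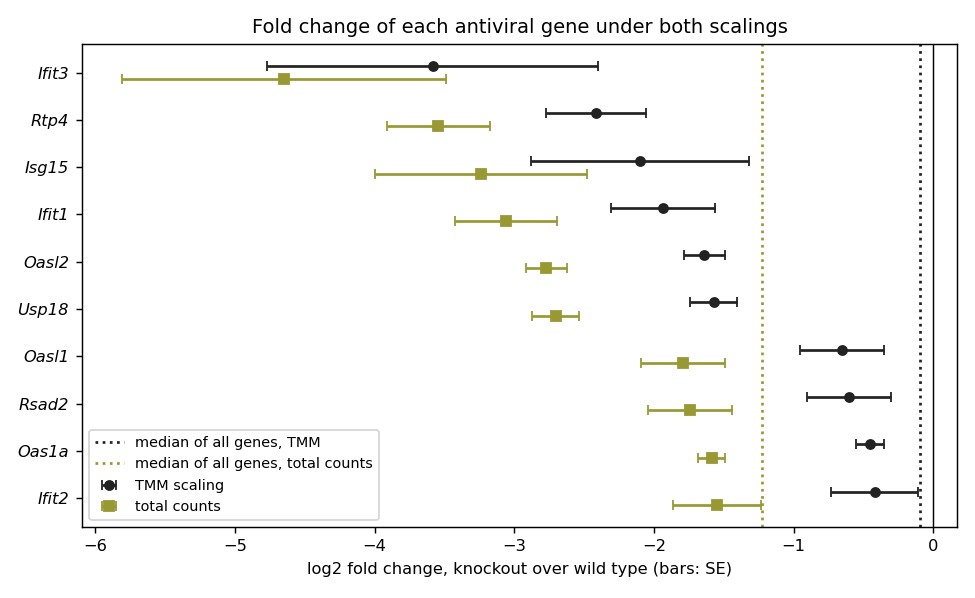
Log2 fold change of each antiviral gene, knockout over wild type, with TMM scaling (circles) and with total counts (squares); bars are standard errors and dotted lines the medians of all genes tested, -0.09 and -1.22. Ifit3, Rtp4, Isg15, Ifit1, Oasl2 and Usp18 lie at -1.57 or below with TMM, and Oasl1, Rsad2, Oas1a and Ifit2 between -0.65 and -0.42.

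The libraries within a group did not share an order across the genes. Knockout replicate 1 was the highest knockout library for 4 of the 10 genes and the lowest, ties included, for 5. The median deviation of the 10 genes from their wild-type mean was -1.45, -1.40 and -1.49 on the log2 CPM scale in the knockout libraries, and it ran from -0.0024 to 0.027 in the wild-type libraries. No single knockout library therefore carried the median.

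By deposited FPKM, which allows for length, the wild-type order was Oas1a at 30.8 ± 1.19, Usp18 at 7.31 ± 0.536, Rtp4 at 5.30 ± 0.893, Oasl2 at 2.98 ± 0.0939, Isg15 at 2.88 ± 0.219 and Oasl1 at 1.79 ± 0.347 (n = 3). Ifit2 at 0.852 ± 0.0313, Ifit1 at 0.776 ± 0.0621, Rsad2 at 0.608 ± 0.189 and Ifit3 at 0.275 ± 0.0689 followed. The libraries of Oasl2 and Isg15, of Ifit2 and Ifit1 and of Ifit1 and Rsad2 overlapped, so those neighbours did not differ beyond their spread. In knockout Oas1a led again at 10.3 ± 1.11, ahead of Usp18 at 1.11 ± 0.207. Oasl1, Oasl2, Rtp4, Ifit2 and Isg15 followed between 0.283 and 0.513, each overlapping its neighbour in the order, and Rsad2 at 0.152 ± 0.0347 and Ifit1 at 0.0896 ± 0.0394 had lower means that overlapped each other. FPKM are scaled to all reads, and by that measure the groups of all 10 genes did not overlap, as was so in the lower direction for 74.3% of all genes tested.

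In the wider interferon pathway more genes were called lower than higher. Over 93 tested genes of 8 further lists, 32 fell, 8 rose and 53 did not pass, set beside the 14.4% of all genes called lower and 17.2% called higher. The share that rose was thus smaller than among all genes and the share that fell larger, which was not tested. With total counts 77 of them were called lower, beside 70.7% of all genes, and no call was higher (0 at an unadjusted p under 0.05 in edgeR).

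Among 10 genes of the interferon receptors and the JAK-STAT relay 2 fell, 2 rose and 6 did not pass (median log2 fold change -0.03). Stat2 fell from 3.35 ± 0.0708 to 1.57 ± 0.358 CPM and its partner Irf9 from 10.9 ± 0.952 to 6.70 ± 0.422 CPM (n = 3 each; log2 fold changes -1.09 and -0.70, edgeR adjusted p = 0.00565 and 0.00224). Ifngr1, a chain of the interferon gamma receptor, rose from 249 ± 9.64 to 504 ± 6.09 CPM, and Ifnar2, a chain of the type I receptor, rose as well (log2 fold change 0.50). With total counts Ifngr1 stood at -0.11, not a call, and Ifnar2 was called lower at -0.63.

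Of 8 interferon regulatory factor genes 3 fell, 2 rose and 3 did not pass (median -0.35). Irf7, which amplifies type I interferon production, fell from 5.29 ± 0.659 to 2.14 ± 0.883 CPM (log2 fold change -1.30, SE 0.28, edgeR adjusted p = 0.00682). Irf8, a factor of monocyte and dendritic cell development, and Irf2, a repressor of interferon responses, both fell (log2 fold change -0.64 each). The call of Irf2 was lost with an offset for exon length and GC content (edgeR adjusted p = 0.0686). Irf1 rose by 0.51 and Irf5 by 0.77, and with total counts they stood at -0.62, called lower, and -0.36. The call of Irf5 was also lost without wild type replicate 2 or 3 or knockout replicate 2 (edgeR adjusted p = 0.0509 to 0.0586).

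Of 12 tested RNA and DNA sensor genes 3 fell and 9 did not pass (median -0.45). Dhx58, a helicase related to RIG-I, fell from 5.96 ± 1.19 to 2.69 ± 0.743 CPM, and Eif2ak2, the RNA-activated kinase PKR, from 25.9 ± 2.74 to 14.8 ± 3.99 CPM (n = 3 each, edgeR adjusted p = 0.00558 and 0.00898). The call of Eif2ak2 was lost with the offset for exon length and GC content (edgeR adjusted p = 0.0601). Zbp1, a sensor of Z-form nucleic acids, fell (log2 fold change -1.56), a call lost without wild type replicate 1 (edgeR adjusted p = 0.0841) or knockout replicate 2 (0.0582). Of the interferon genes on the list 2 of 21 were in the table, and neither passed. Ifng, the type II interferon, had 7, 12 and 13 wild-type counts against 18, 4 and 8, and Ifnz, a type I interferon, had 21, 21 and 26 against 6, 1 and 1.

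Negative regulators gave 2 lower, 2 higher and 3 not passing of 7 (median 0.18). Socs3, an inhibitor of JAK kinases, rose from 0.325 ± 0.0462 to 1.20 ± 0.277 CPM (log2 fold change 1.87, SE 0.43, edgeR adjusted p = 0.00952), at 0.73 and not a call with total counts. The phosphatase gene Ptpn2 rose by 0.60, but was called lower at -0.54 with total counts. Ptpn1, another phosphatase gene, fell (-0.64), and so did Pias1, a STAT inhibitor (-0.30), a call lost under 7 alternatives. These include the offset for exon length and GC content, where it stood at 0.025, and wild type replicates 2 and 3 and knockout replicates 2 and 3 left out in turn (edgeR adjusted p = 0.115 to 0.178).

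Of 14 interferon-induced GTPase genes 4 fell and 10 did not pass (median -1.02). These were Tgtp2 (log2 fold change -1.54), Tgtp1 (-1.36), Igtp (-1.21) and Gbp7 (-0.83), and Tgtp1 and Tgtp2 are near-identical, so their reads may be split. Of 36 tested members of a list of other antiviral effectors 15 fell, 2 rose and 19 did not pass (median -0.37). Isg20, an exonuclease, fell (log2 fold change -0.82), as did Lgals3bp, a secreted glycoprotein (-0.40). Ifitm2, which restricts viral entry, went the other way and rose from 1448 ± 206 to 3054 ± 191 CPM (log2 fold change 1.08, SE 0.10), though it stood at -0.05, not a call, with total counts. Mx1, whose promoter drives Cre in this model, was named after its value was seen and had means of 0.527 ± 0.214 and 0.533 ± 0.119 CPM (SD, n = 3 each, adjusted p = 0.993 by edgeR).

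**Figure D3:**
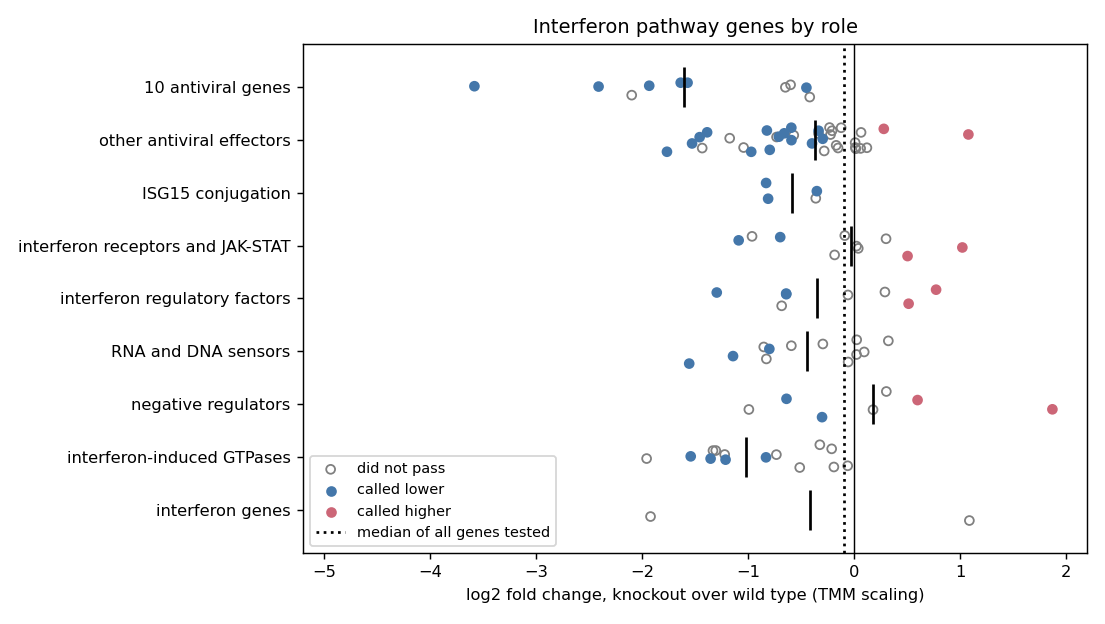
Log2 fold change of the tested interferon pathway genes by role, knockout over wild type with TMM scaling; filled points passed the threshold, black bars are list medians and the dotted line is the median of all genes tested. The 10 antiviral genes have a median of -1.61, while the receptor and JAK-STAT genes have a median of -0.03; Oas1b, with no knockout count, is left out.

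The genes whose profile over the 6 libraries lay nearest to the mean profile of the 10 were Ighg1, Igkv5-48, Nubp1, Ap4s1 and Iglj1, out of 11434 candidates. Their root mean square distance was 0.0724 to 0.127 on the log2 CPM scale. Ighg1, Igkv5-48 and Iglj1 are immunoglobulin gene segments, Nubp1 encodes an iron-sulphur assembly protein and Ap4s1 an adaptor subunit of vesicle transport. Ighg1, for example, had a wild-type mean of 22.3 ± 1.55 CPM and a knockout mean of 7.52 ± 0.619 CPM (SD, n = 3 each).

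Markers of stem and progenitor cells and of other cells moved beside these genes, and their part in the result was not tested. The summed level of 12 stem and progenitor markers was 211 to 217 CPM in wild type and 230 to 236 CPM in the knockout libraries, but with total counts as the scaling the direction turned, at 303 to 329 against 152 to 162 CPM. Cd34 had means of 106 ± 4.54 and 102 ± 0.483 CPM, Kit of 13.7 ± 1.77 and 16.9 ± 0.276 CPM and Ly6a of 19.9 ± 0.663 and 33.8 ± 3.86 CPM (SD, n = 3 each). RNA of these genes was thus present in both groups. With TMM only Ly6a of these 3 genes passed, higher in knockout, and with total counts Cd34, Kit and Ly6a were all called lower, at -1.20, -0.83 and -0.37 on the log2 scale.

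Sums over 10 eosinophil, basophil and mast cell markers were 6015 to 7191 against 45121 to 50822 CPM (7 of 10 rose), and over 10 neutrophil markers 2376 to 2753 against 8389 to 8709 CPM (5 of 10 rose). Most of each sum was 1 gene, Prg2 and S100a8, and the genes singled out in the marker sums were chosen after their values were seen. Without Prg2 the first sum was 1301 to 1364 against 8051 to 8123 CPM. Without S100a8 the neutrophil sum was 436 to 538 against 840 to 892 CPM, and with total counts 661 to 773 against 571 to 611 CPM. Over 11 erythroid markers the sums were 1454 to 1944 against 4786 to 5749 CPM (4 of 11 rose and 2 fell). The 4 that rose were globin genes, and the other 7 markers summed to 51.4 to 53.6 against 36.6 to 44.7 CPM.

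Sums of 7 plasmacytoid dendritic cell markers were 69.8 to 74.5 against 57.5 to 61.2 CPM (2 of 7 fell and 1 rose). Those of 9 B cell markers were 110 to 132 against 84.7 to 96.6 CPM (5 of 8 tested fell). Those of 13 monocyte and macrophage markers were 133 to 144 against 128 to 133 CPM (3 of 12 tested fell and 1 rose). In that list Fcgr1, at 10, 33 and 23 wild-type counts, and Ms4a7, at 44, 11 and 28, had no count in knockout. Both are among the 3 that fell, and both passed the low-count filter through wild type alone. Csf1r (23.2 and 22.8 CPM) and Adgre1 (0.929 and 1.01 CPM) did not pass the threshold. Cd68 fell from 56.4 to 33.3 CPM, and Vcam1 rose from 33.4 to 52.0 CPM. With total counts Vcam1 was instead called lower (log2 fold change -0.50). Over 9 T and NK cell markers the sums were 3371 to 3435 against 6326 to 6740 CPM (1 of 7 tested rose and 1 fell), and with total counts 4935 to 5115 against 4264 to 4585 CPM. Nearly all of that sum was Nkg7, and the other 8 markers summed to 14.2 to 15.8 against 8.57 to 9.54 CPM. Cd4, with 20, 0 and 3 wild-type counts and none in knockout, did not pass the filter. Over 5 stromal and endothelial markers the sums were 16.9 to 18.9 against 12.9 to 17.6 CPM, and the 4 tested did not pass.

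**Figure D4:**
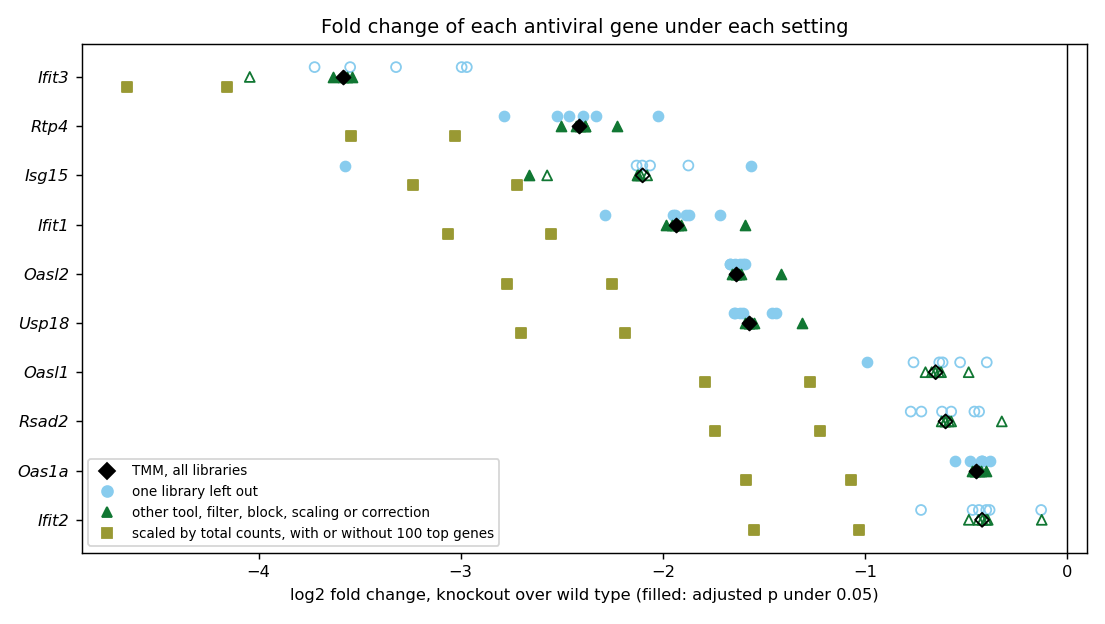
Log2 fold change of each antiviral gene, knockout over wild type, in the fit with TMM and all libraries and under the alternative settings; filled symbols have an adjusted p under 0.05. Every value lies below 0, the calls of Isg15, Ifit3, Oasl1, Ifit2 and Rsad2 change with the setting (those of Ifit2 and Rsad2 only with the total-count scalings), and the fit of Ifit3 without knockout replicate 3, where no knockout count is left, is not drawn.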

How the data were processed

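Per the submitters' processing notes, the tools were featureCounts 2.0.1, HISAT2 2.2.1, fastp 0.22.0 and DESeq2 1.32.0, with the mm10 build; order, options and strand are not given in the sources used here. The authors deposited raw read counts per gene and library. They also deposited length-scaled values without a unit, taken as FPKM because 98.8 to 99.0% of single-transcript genes with at least 500 counts lay within 1% of a constant multiple of count over exon length. The deposited log2 fold changes, their standard errors and p-values are the authors' own DESeq2 comparison, with a mean signal and a test score per gene. Per the file headers these carry no options.

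Of 18491 gene IDs, 18457 matched GENCODE vM21 (GRCm38, also called mm10). The tests used edgeR 4.0.16 (R 4.3.3): filterByExpr (15474 genes kept), TMM, glmQLFit and glmQLFTest, two-sided, group as the only term, Benjamini-Hochberg over all genes, threshold 0.05. The standard error is the size of the log2 fold change over the square root of F. Totals of 42235077 to 58106099 counts set the precision, and intervals and floors (3 counts) cover counting error only. DESeq2 1.42.0, other scalings, no filter, a replicate block, a correction for exon length and GC content, and each library left out were alternatives. The procedure was also run on simulated counts in which equal numbers of genes were raised and lowered. That simulation was not built with a shift in composition like the one between these groups, so it does not cover it.

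Members, gene lists and tests were chosen with earlier results of these data known. Named genes are the 10 members, every called gene of a list with up to 6 calls (otherwise the 4 of lowest p and the gene that goes most against the others), and the 5 genes of nearest profile with a mean of at least 1 CPM. Of the marker lists the rule names Kit, Cd34 and Ly6a. Trim25, Ifit3b, Ifng, Ifnz and the other marker genes lie outside the rule and were named after their values were seen. The profile is log2 CPM with a prior count of 2, less the wild-type mean.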

Additional observations from a re-analysis of the deposited data

How the results depend on the processing

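All 10 antiviral genes kept a log2 fold change below 0 under the 14 alternatives run. Usp18, Oasl2, Oas1a, Ifit1 and Rtp4 stayed called under each of them, Ifit3 lost its call under 7, and Isg15, Oasl1, Ifit2 and Rsad2 gained one under 6, 3, 2 and 2. With total counts 10 of the genes were called lower at a median of -2.74, with 10936 genes lower and 656 higher, and 77 pathway genes lower and 0 higher (0 at an unadjusted p under 0.05). With total counts without the 100 most abundant genes these were 10 at -2.22, 8108, 1248, 68 and 3. With an offset for GC content and exon length the median was -1.36 and 1408 genes were lower, and 24 pathway genes were lower and 12 higher. Leaving out 1 library gave 5 to 7 of the 10 genes at a median of -1.65 to -1.52, and 1356 genes lower without wild type replicate 2, 1419 without wild type replicate 3 and at most 2142. The cause of these shifts was not tested.

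Genes that rose with TMM reversed with total counts: Ifitm1 (-0.85), Ifitm2 (-0.055), Ifngr1 (-0.11), Ifnar2 (-0.63), Irf1 (-0.62), Irf5 (-0.36) and Ptpn2 (-0.54). Without the 100 most abundant genes in the total Ifitm1 (-0.34), Ifnar2 (-0.11), Irf1 (-0.10) and Ptpn2 (-0.021) did so, and after the length and GC correction Ifitm1 (-0.043). Pias1, which fell with TMM, reversed after the length and GC correction (0.025).

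Same-numbered libraries did not deviate together (correlations 0.041, -0.0051 and 0.048), and not every library correlated best with its own number. The replicate block gave 5 of the 10 genes, 1906 genes lower and 2467 higher. In knockout the counts of Isg15, Ifit1 and Ifit3 limit what this depth can show.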
